A study of Mus musculus with 7 samples.

Results

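The MEF2 transcription factors and the class IIa histone deacetylases, protein families that act on the same genes, were followed in cultured mouse cortical neurons. The members were taken by gene name, with earlier results of these data known. They are *Mef2a*, *Mef2c* and *Mef2d* on the MEF2 side and *Hdac4*, *Hdac5*, *Hdac7* and *Hdac9* on the deacetylase side, 7 genes of the 12315 genes tested. The array reads them with 22 probe sets, sets of short oligonucleotides that each report 1 level, and 21 of these were tested. The exception was a sixth probe set of *Mef2a* (1442623_at), which stayed under 50 on every array. A level here is the normalised intensity of a probe set on a linear scale, and levels of different probe sets are not set against each other.

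Luciferase neurons (4 arrays, numbered 1 to 4) received a lentivirus with an shRNA, a short hairpin RNA, against luciferase. This is a control hairpin, since mouse cells carry no luciferase gene. Blank neurons (3 arrays, numbered 5 to 7) were naïve cultures without virus. Both came from the E16 embryonic cortex of C57/Bl6J mice and were kept 16 days in vitro, with RNA taken 2 weeks after the virus was added to the transduced wells. Per the methods the virus also leads to expression of green fluorescent protein. So the comparison holds the virus, this protein and the hairpin together, and they cannot be told apart. Replicates are separate culture wells. No source used here says that they are separate preparations, so a p-value reflects the spread among these wells alone, and that spread may be technical.

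MEF2 proteins are DNA-binding factors of the MADS-box class that bind a short AT-rich site and are known in neurons for control of activity-dependent genes, of survival and of synapse number. Class IIa deacetylases have little catalytic activity of their own. They dock on MEF2 in the nucleus and bring a corepressor complex that contains HDAC3. Protein kinase D and the calcium-driven CaM kinases are among the kinases that phosphorylate them. After that, 14-3-3 proteins bind and the deacetylases leave the nucleus. Calcineurin also controls MEF2 factors. *Hdac9* also gives rise to a short form, MITR, that keeps the MEF2-binding part and lacks the deacetylase domain. In muscle, *Hdac9* is itself a MEF2 target.

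Promoters are shown for the members whose windows hold a MEF2-type sequence and for the 2 genes with probe sets past the test, to let the letters be read beside the values. The RefSeq annotation (GRCm38.p6) gives 13 promoters for the 7 genes, each of 300 bases with 250 before and 50 after the start. Which start these neurons used was not measured. Capitals mark the MEF2 site (the consensus searched, on both strands) or TAAAAATA in the *Mef2a*, *Hdac5* and first *Hdac9* windows and TATAAA, read on either strand, in the other 2. All run 5′ to 3′ on the gene's strand. The windows are chr7:67372809-67373108 (minus strand) for *Mef2a*, chr11:102230123-102230422 (minus) for *Hdac5*, chr12:34528840-34529139 (minus) and chr12:34917046-34917345 (minus) for *Hdac9*, and chr13:83523406-83523705 (plus) for *Mef2c*.
Mef2a: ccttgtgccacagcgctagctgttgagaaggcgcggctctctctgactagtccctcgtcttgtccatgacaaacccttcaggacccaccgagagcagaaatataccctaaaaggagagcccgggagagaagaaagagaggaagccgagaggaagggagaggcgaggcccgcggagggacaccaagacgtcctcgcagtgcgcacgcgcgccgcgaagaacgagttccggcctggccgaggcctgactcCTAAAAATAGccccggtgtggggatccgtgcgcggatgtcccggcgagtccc
Hdac5: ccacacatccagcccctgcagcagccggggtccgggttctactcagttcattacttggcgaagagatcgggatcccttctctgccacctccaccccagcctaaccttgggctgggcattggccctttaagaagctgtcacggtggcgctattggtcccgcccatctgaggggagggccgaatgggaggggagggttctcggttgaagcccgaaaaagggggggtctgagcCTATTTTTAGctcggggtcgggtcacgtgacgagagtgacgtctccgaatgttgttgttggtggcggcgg
Hdac9 window at 34528840: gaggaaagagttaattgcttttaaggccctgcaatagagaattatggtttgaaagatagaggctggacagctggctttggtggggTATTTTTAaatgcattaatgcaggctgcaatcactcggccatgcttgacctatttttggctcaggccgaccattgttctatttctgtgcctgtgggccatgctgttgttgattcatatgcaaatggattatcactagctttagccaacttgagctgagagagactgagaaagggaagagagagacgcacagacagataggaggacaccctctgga
Hdac9 window at 34917046: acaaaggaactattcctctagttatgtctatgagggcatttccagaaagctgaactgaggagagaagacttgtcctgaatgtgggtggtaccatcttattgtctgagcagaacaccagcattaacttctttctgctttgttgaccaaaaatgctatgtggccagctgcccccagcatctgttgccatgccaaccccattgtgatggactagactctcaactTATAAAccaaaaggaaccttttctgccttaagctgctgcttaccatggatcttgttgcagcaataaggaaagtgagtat
Mef2c: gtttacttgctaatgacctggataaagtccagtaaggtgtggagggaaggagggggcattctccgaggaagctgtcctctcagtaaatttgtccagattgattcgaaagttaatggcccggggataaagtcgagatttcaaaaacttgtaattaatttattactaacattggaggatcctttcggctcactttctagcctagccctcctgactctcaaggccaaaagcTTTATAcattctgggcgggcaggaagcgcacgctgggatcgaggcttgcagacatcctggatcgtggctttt

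The MEF2 site was found in *Mef2a*, from base -2 to base 7 with the first base after the 250 counted as 0, and in *Hdac5*, from -20 to -11. It occurs in 3.19% of all 32851 promoters of the annotation. The shorter TAAAAATA, which lies inside the MEF2 site where that has this core, was also found in an *Hdac9* window at -165 to -158, and 2.72% of all promoters hold it. TATAAA lies at -29 to -24 in the other *Hdac9* window and, on the opposite strand, at -22 to -17 in the *Mef2c* window shown. Another of the 3 *Mef2c* windows, chr13:83503784-83504083 (plus), holds it at -107 to -102. It is found in 13.6% of all promoters, anywhere in the window. Of the other elements searched on both strands, the cAMP response element TGACGTCA (1.79% of all promoters) and the CArG box (1.63%), which serum response factor binds, had no match in the 13 windows. The AP-1 element TGANTCA (7.81%) matched 1 window each of *Hdac9*, *Mef2c* and *Hdac7*, of which the *Mef2c* and *Hdac7* windows are not shown. A match is a run of letters and no measured binding.

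Over all 22748 probe sets tested, 24.5% passed an adjusted p of 0.05 between luciferase and blank neurons (16.2% higher and 8.26% lower in luciferase neurons). Of those called, 66.2% were higher, and this share moved to 49.5% after quantile normalization and to 37.3% after median centring of each array. The blank arrays spread more than the luciferase arrays: median levels of the tested probe sets were 237.4 to 241.4 on the luciferase arrays and 215.5 to 235.1 on the blank arrays. Before the filter on level the medians ran the other way, 48.3 to 49.0 on the luciferase arrays and 49.6 to 51.0 on the blank arrays. The median centring used the tested probe sets. Blank array 7 was the highest blank array for 15 of the 21 member probe sets (71.4%, against 53.8% of all tested). Among markers of other cell types, 6 of 8 astrocyte genes rose in luciferase neurons, and their summed level was 23426 to 25715 on the luciferase arrays and 17321 to 19402 on the blank arrays. Of the excitatory neuron markers 4 of 6 were higher and 1, *Neurod6*, was lower in luciferase neurons, and of 7 GABA neuron markers 1 (*Slc32a1*) was lower. Of 7 oligodendrocyte lineage markers 1 (*Mbp*) was higher, and the summed levels overlapped (6262 to 7467 on luciferase arrays and 6552 to 6725 on blank arrays). Microglia markers summed to 246 to 282 on luciferase arrays and 278 to 364 on blank arrays, with 6 of 8 under 50 everywhere, *Aif1* and *Cx3cr1* among them. Endothelial markers summed to 170 to 192 on luciferase arrays and 195 to 225 on blank arrays, with 5 of 7 under 50 everywhere and 1 (*Flt1*) lower in luciferase neurons (-0.43, adjusted p = 0.0043). Each sum adds raw levels over probe sets, so the brightest ones lead it and it does not count cells. Both neuron lists were detected, as the label of the cultures asks. The part that glial RNA has in the results on the members was not tested, and in bulk RNA fewer cells of a type and less RNA per cell cannot be told apart.

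Of the 21 member probe sets, 2 were higher and 2 lower in luciferase neurons and 17 did not pass, or 19.0% called beside the 24.5% of all tested. The 2 that rose both read *Mef2c*, and the 2 that fell both read *Hdac9*. At the stricter rule of the methods, with at least 1.5-fold as well, 1 of each stayed, where 4.19% of all tested passed (2.9% higher and 1.29% lower). The median log2 change was 0.078 over the 13 MEF2 probe sets, -0.0081 over the 8 deacetylase probe sets and 0.056 over all tested. Groups did not overlap for 5 of the 21, beside 34.8% of all tested. The count of higher probe sets was 6 without blank array 7, and that of lower ones 1 without any one of luciferase arrays 1, 2 and 3 or blank arrays 5 and 6. The shares over all tested probe sets moved as well. Higher calls went from 16.2% to 21.6% without blank array 7. Lower calls went from 8.26% to between 5.11% and 5.69% without any one of the other arrays named. The called share is not above the background, and differences between the member genes were not tested.

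**Figure D1:**
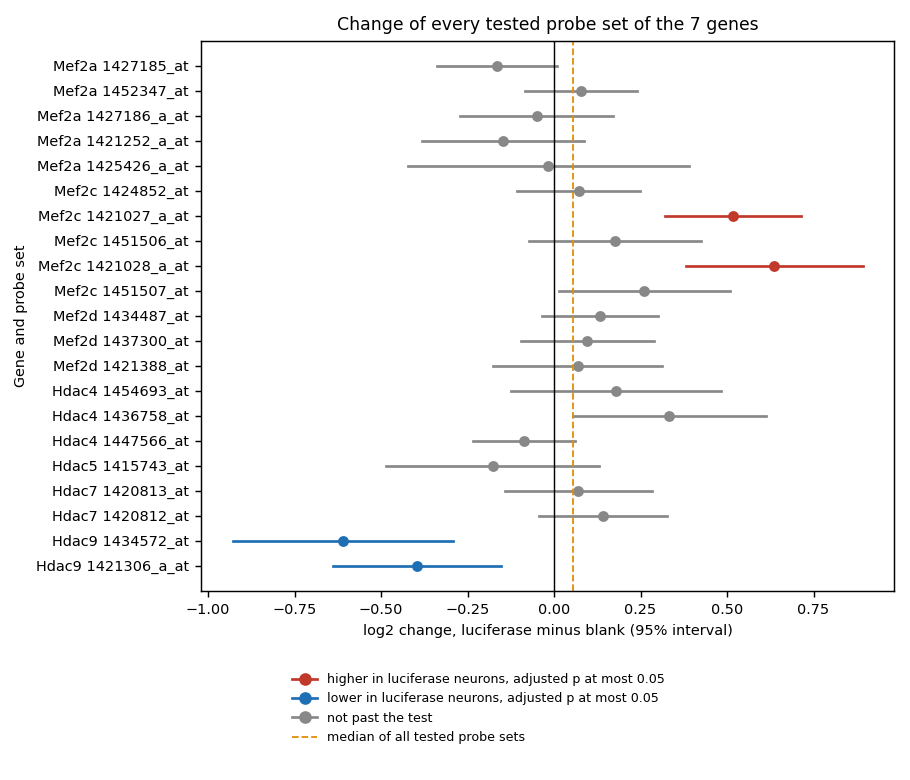
Log2 change (luciferase minus blank, x axis) of each of the 21 tested probe sets of the 7 genes, with bars for the 95% interval and a dashed line at the median of all tested probe sets, 0.056. The *Mef2c* probe sets 1421027_a_at and 1421028_a_at, to the right, and both *Hdac9* probe sets, to the left, passed an adjusted p of 0.05. The intervals of *Mef2c* 1451507_at and *Hdac4* 1436758_at also lie above 0, but these did not pass the adjustment.

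*Mef2c* is the member best known for cortical development and for restraint of excitatory synapse number, and loss of a copy in humans causes intellectual disability. Its probe set 1421027_a_at read 4170.5, 4230.4, 4011 and 4938 in luciferase neurons, against 3041, 2889 and 3147 in blank neurons. Probe set 1421028_a_at read 1788, 1923, 1988 and 2324 in luciferase neurons, against 1401, 1369.5 and 1105 in blank neurons. Every luciferase array was above every blank array on both, with luciferase array 4 the highest. The first averaged 4337 ± 411 in luciferase neurons (SD, n = 4) and 3026 ± 129 in blank neurons (SD, n = 3), a 1.43-fold difference, and a log2 change of 0.52 (SE 0.088, 95% interval 0.32 to 0.71, adjusted p = 0.0044). The second averaged 2006 ± 228 in luciferase neurons (SD, n = 4) and 1292 ± 163 in blank neurons (SD, n = 3), 1.55-fold, with a change of 0.64 (SE 0.11, 95% interval 0.38 to 0.89, adjusted p = 0.0055). In size these changes exceeded 93.5% and 96.6% of those of all tested probe sets. Both passed under each of the 14 alternatives run, which include leaving out each array.

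The other 3 *Mef2c* probe sets, whose listed target is 1 and the same expressed sequence record, were at values where the groups overlapped. The brightest of them, 1424852_at, read 5168, 4889, 5298 and 5337 in luciferase neurons, against 4707, 4689 and 5407 in blank neurons. Its change was 0.071 (SE 0.079, 95% interval -0.11 to 0.25, adjusted p = 0.539). Probe set 1451506_at read 2026, 1896, 2143 and 1965 in luciferase neurons, against 1677, 1554 and 2144 in blank neurons, a change of 0.18 (SE 0.11, 95% interval -0.071 to 0.43, adjusted p = 0.266). Probe set 1451507_at read 1717, 1708, 1833 and 1699.5 in luciferase neurons, against 1306, 1319 and 1773 in blank neurons, a change of 0.26 (SE 0.11, 95% interval 0.014 to 0.51, adjusted p = 0.112). On all 3, blank array 7 stood well above the other blank arrays and level with the luciferase arrays. Without blank array 7 the changes of 1451506_at and 1451507_at were 0.31 (adjusted p = 0.020) and 0.41 (adjusted p = 0.0054), and that of 1424852_at did not pass.

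Whether the probe sets of one gene moved apart was tested on their within-array differences, over 8221 further probe sets set against the brightest probe set of their gene, of which 3.38% passed. For *Mef2c*, the change of 1421027_a_at exceeded that of 1424852_at by 0.45 (SE 0.10, 95% interval 0.22 to 0.67, adjusted p = 0.048). That of 1421028_a_at exceeded it by 0.57 (SE 0.15, 95% interval 0.24 to 0.89), which missed the threshold (adjusted p = 0.066). The first call rests on all 7 arrays, since it was lost without any one of them (adjusted p between 0.059 and 0.143). The other 2 differed from the brightest by 0.11 (adjusted p = 0.59) and 0.19 (adjusted p = 0.305). Probe sets with a_at in the name read several transcripts of 1 gene, and no source used here says which *Mef2c* transcripts each of the 5 reads.

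*Mef2a* codes for a MEF2 factor that is abundant in mature neurons and that calcineurin and sumoylation control. Its brightest probe set, 1427185_at, read 1342, 1247, 1248 and 1248 in luciferase neurons, against 1401, 1331 and 1551 in blank neurons. Luciferase array 1 overlapped the blank range and the other 3 luciferase arrays lay just under it. The change was -0.17 (SE 0.078, 95% interval -0.34 to 0.0095, adjusted p = 0.148). It passed only when the arrays were rescaled, at -0.21 (adjusted p = 0.044) after quantile normalization and at -0.26 (adjusted p = 0.022) after centring each array on its median. Probe set 1452347_at, which lists the same sequence record, read 892, 856, 933 and 918 in luciferase neurons, against 831, 821 and 906 in blank neurons, a change in the other direction of 0.078 (SE 0.073, 95% interval -0.085 to 0.24, adjusted p = 0.458). The difference between these 2 probe sets was 0.24 (SE 0.092, unadjusted p = 0.025) and did not pass the adjustment (adjusted p = 0.166). The remaining 3 changed by -0.050 (1427186_a_at, adjusted p = 0.733), -0.15 (1421252_a_at, adjusted p = 0.327) and -0.017 (1425426_a_at, adjusted p = 0.954). The dimmest, 1425426_a_at, read between 50.2 and 82.9 on the luciferase arrays and between 51.7 and 75.4 on the blank arrays, close to the filter, and its interval ran from -0.42 to 0.39. So none of the 5 *Mef2a* probe sets passed in the fit as designed.

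*Mef2d* codes for the MEF2 factor known as a calcium-responsive survival factor of neurons and a substrate of CDK5. Its brightest probe set, 1434487_at, read 1096, 1161, 1191 and 1217 in luciferase neurons, against 1043, 1018 and 1133 in blank neurons. Luciferase arrays 2 to 4 were above all blank arrays and luciferase array 1 was within their range. The change was 0.13 (SE 0.075, 95% interval -0.036 to 0.30, adjusted p = 0.223). Probe set 1437300_at read 211, 223, 236 and 256 in luciferase neurons, against 219, 204 and 227 in blank neurons, a change of 0.10 (SE 0.085, 95% interval -0.10 to 0.29, adjusted p = 0.438). Probe set 1421388_at read 87.1, 85.1, 90.2 and 87.5 in luciferase neurons, against 98.6, 84.3 and 69.8 in blank neurons, a change of 0.068 (SE 0.11, 95% interval -0.18 to 0.31, adjusted p = 0.672). On this dim probe set the 4 luciferase arrays lay close together and the blank arrays spread on both sides of them. The hairpins against *Mef2a* and *Mef2d* that the study also used are not analysed here.

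**Figure D2:**
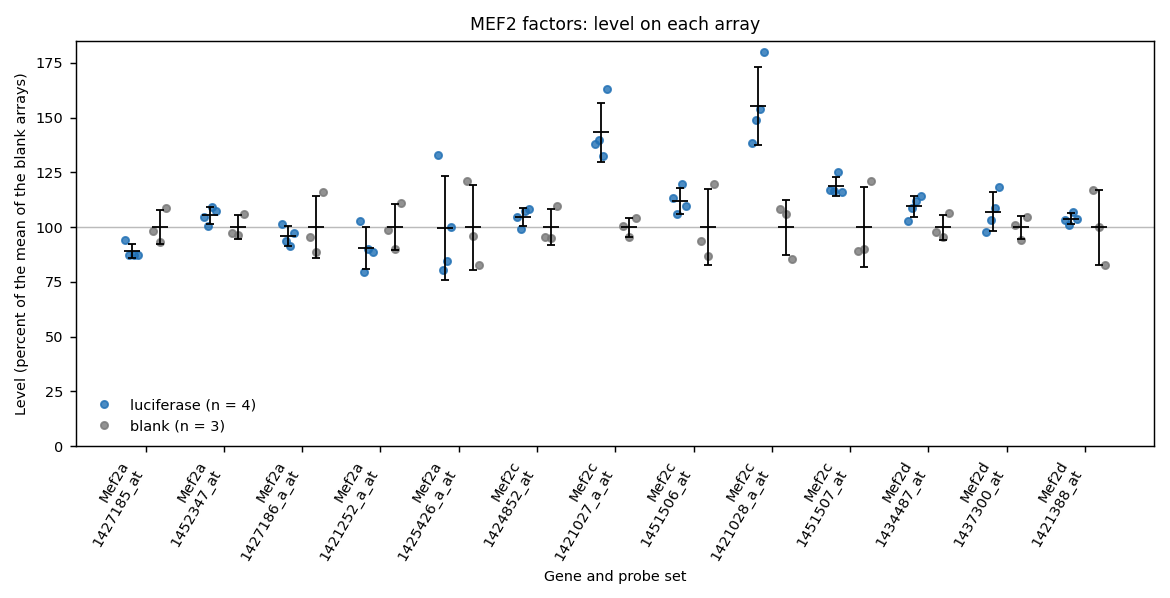
Level on each array for the 13 tested probe sets of *Mef2a*, *Mef2c* and *Mef2d*, relative to the blank mean (percent, y axis, linear), with horizontal bars for the mean and error bars for the SD of 4 luciferase and 3 blank arrays. The groups separate on *Mef2c* probe sets 1421027_a_at and 1421028_a_at and overlap on the other 11.

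*Hdac9* was the class IIa deacetylase that fell. Its brighter probe set, 1434572_at, read 656, 771, 736 and 633 in luciferase neurons, against 1009.9, 876 and 1359 in blank neurons. All 4 luciferase arrays were below all 3 blank arrays, although the blank arrays themselves spread widely, with array 7 the highest. The mean was 699 ± 65.3 in luciferase neurons (SD, n = 4) and 1082 ± 249 in blank neurons (SD, n = 3), 1.53-fold lower in luciferase neurons. The log2 change was -0.61 (SE 0.14, 95% interval -0.93 to -0.29, adjusted p = 0.015), and it exceeded 96.1% of all tested probe sets in size. Under the 14 alternatives it ranged from -0.75 to -0.43 and passed each time, with -0.43 the value without blank array 7. Probe set 1421306_a_at read 76.1, 69.4, 75.9 and 83.2 in luciferase neurons, against 107, 111 and 84.3 in blank neurons, also without overlap, though luciferase array 4, at 83.2, came close to blank array 7, at 84.3. Its change was -0.40 (SE 0.11, 95% interval -0.64 to -0.15, adjusted p = 0.028), 1.32-fold lower. This second call was lost when any one of luciferase arrays 1, 2 and 3 or of blank arrays 5 and 6 was left out (adjusted p between 0.057 and 0.0999), at changes of -0.40 to -0.32. The difference between the changes of the 2 probe sets did not pass (0.22, 95% interval -0.29 to 0.72, adjusted p = 0.639).

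*Hdac4*, a deacetylase that in neurons moves between cytoplasm and nucleus with activity, had 3 probe sets and none passed. Probe set 1454693_at read 220.3, 282, 249 and 256 in luciferase neurons, against 204, 192 and 279 in blank neurons, a change of 0.18 (SE 0.14, 95% interval -0.12 to 0.48, adjusted p = 0.357). Probe set 1436758_at read 187, 226, 243 and 242 in luciferase neurons, against 175, 154 and 207 in blank neurons, a change of 0.33 (SE 0.12, 95% interval 0.054 to 0.61, adjusted p = 0.079). On both, blank array 7 reached the luciferase range and blank array 6 was the lowest of all 7. Without blank array 7 both passed, at 0.34 (adjusted p = 0.035) and 0.44 (adjusted p = 0.025), and without luciferase array 1 the second passed at 0.42 (adjusted p = 0.038). Probe set 1447566_at read 99.5, 99.7, 95.8 and 102 in luciferase neurons, against 107, 104 and 105 in blank neurons. These groups did not overlap, but the step was small and ran the other way, at -0.086 (SE 0.066, 95% interval -0.23 to 0.062, adjusted p = 0.363). The difference between its change and that of 1454693_at was -0.27 (95% interval -0.59 to 0.059, adjusted p = 0.328).

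*Hdac5*, the class IIa member known for its export in response to CaM kinase and protein kinase D, was read by 1 probe set, 1415743_at. It read 415, 524, 473 and 451 in luciferase neurons, against 503, 436 and 659 in blank neurons. The blank arrays covered nearly the whole range of the luciferase arrays, and blank array 7 was the highest of the 7. The change was -0.18 (SE 0.14, 95% interval -0.49 to 0.13, adjusted p = 0.367). *Hdac7*, best known from thymocytes and endothelium, was dim. Probe set 1420813_at read 135, 128, 136 and 112 in luciferase neurons, against 129.6, 126 and 110.1 in blank neurons, a change of 0.070 (SE 0.095, 95% interval -0.14 to 0.28, adjusted p = 0.615). Probe set 1420812_at read 77.0, 84.9, 79.9 and 72.6 in luciferase neurons, against 69.5, 67.5 and 76.7 in blank neurons, a change of 0.14 (SE 0.083, 95% interval -0.043 to 0.33, adjusted p = 0.233). The groups overlapped on both.

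**Figure D3:**
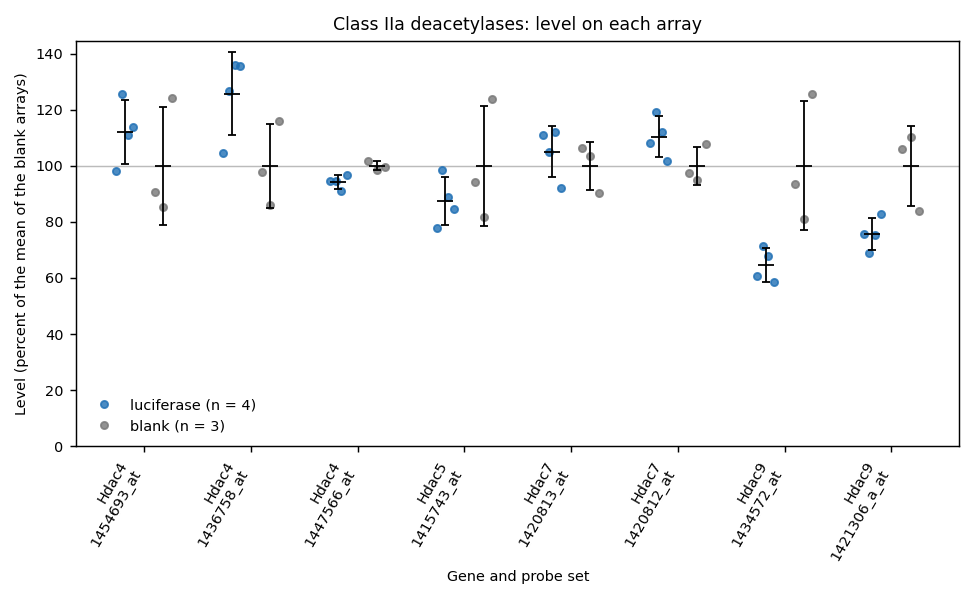
Level on each array for the 8 tested probe sets of *Hdac4*, *Hdac5*, *Hdac7* and *Hdac9*, relative to the blank mean (percent, y axis, linear), with horizontal bars for the mean and error bars for the SD of 4 luciferase and 3 blank arrays. On *Hdac9* probe set 1434572_at the luciferase mean lies at 64.6% of the blank mean. Before division by the blank mean, its luciferase arrays read 632.7 to 770.8 and its blank arrays 876.5 to 1359.

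Genes around the 2 families were read from 5 lists of 59 genes, each gene through the probe set with the highest mean over the 7 arrays. Of 53 measured, 7 were higher, 7 lower and 39 not past the test, beside 25.4% of all genes called (16.9% higher and 8.55% lower). The median log2 change was 0.098, against 0.057 over all genes tested. The count of higher genes was 3 without luciferase array 3, blank array 5 or blank array 6 and 11 without blank array 7. With each array centred on its median, 4 were higher and 9 lower, beside 9.10% and 15.3% of all tested probe sets.

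Among kinases that phosphorylate class IIa deacetylases or act just upstream of those kinases, 3 of 16 measured genes were higher and 4 lower in luciferase neurons. Over all genes 16.9% were higher and 8.55% lower. *Camkk2*, the kinase that activates CaM kinases I and IV, showed the largest change of the list. It read 1082, 929.7, 901 and 1023 in luciferase neurons, against 1570.2, 1488 and 1789 in blank neurons, 1.64-fold lower, at a change of -0.72 (SE 0.10, 95% interval -0.93 to -0.50, adjusted p = 0.0015), and all 4 of its probe sets passed. *Mark3* and *Sik3*, kinases of the AMPK-related group, changed by -0.45 (adjusted p = 0.0086) and -0.44 (adjusted p = 0.010), without overlap between the groups. *Camk4*, a nuclear CaM kinase, was -0.27 (adjusted p = 0.022), and 2 of its 5 probe sets passed. It was named after its values were seen. *Prkd1*, a protein kinase D, was higher at 0.39 (adjusted p = 0.010), as were *Camk2a* at 0.31 (adjusted p = 0.026), where 2 of 5 probe sets passed, and *Camk1d* at 0.31 (adjusted p = 0.040). For *Camk2d* the standing probe set did not pass, while of 4 probe sets 1 was higher and 1 lower, between -0.58 and 0.80, and for *Mark2* 1 of 3 probe sets was lower, at -0.35 (adjusted p = 0.040). *Camkk1* and *Prkd2* were listed and not tested. *Camkk2*, *Mark3*, *Sik3* and *Prkd1* passed without any one array, while *Camk1d* passed without blank array 7 alone (adjusted p between 0.063 and 0.140 without another array). *Camk2a* was lost without luciferase array 2 or 3 or blank array 5 or 6 (adjusted p between 0.059 and 0.080), and *Camk4* without luciferase array 1, 2 or 3 or blank array 5 (adjusted p between 0.054 and 0.069).

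No gene of the export list passed on its brightest probe set, beside 25.4% of all genes. Its 7 members, 6 genes for 14-3-3 proteins and the export receptor *Xpo1*, lay between -0.14 and 0.17 there. Of the 5 probe sets of *Ywhaz*, a 14-3-3 gene, 1 dimmer one was lower at -0.999 (adjusted p = 0.0049), without overlap between the groups. The 6 corepressor genes measured, of 8 listed, lay between 0.019 and 0.20 on their brightest probe sets, and none of these passed. Among the dimmer ones, 1 of 3 probe sets of *Tbl1x*, a subunit of the HDAC3 complex, was higher at 0.66 (adjusted p = 0.0032). For *Cabin1*, a calcineurin-binding repressor of MEF2, 1 of 2 was higher at 0.81 (adjusted p = 0.0062), and neither overlapped between the groups. The list includes *Hdac3* at 0.048 (adjusted p = 0.687), which supplies the deacetylase activity of the complex.

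Of the 15 coactivators and modifiers of MEF2, 3 were higher and none lower on the brightest probe set. Over all genes 16.9% were higher and 8.55% lower. *Ppargc1a*, a coactivator that MEF2 factors recruit in muscle and that drives mitochondrial genes, read 877, 787, 871 and 950.2 in luciferase neurons, against 669, 466 and 628 in blank neurons. That is a change of 0.58 (SE 0.13, 95% interval 0.30 to 0.86, adjusted p = 0.011), without overlap, and 2 of its 4 probe sets passed. *Cdk5r1*, the p35 activator of CDK5, changed by 0.35 (adjusted p = 0.036), although 1 of 4 probe sets passed and the 4 ranged from -0.50 to 0.35. *Mapk14*, the p38 kinase that phosphorylates MEF2, changed by 0.33 (adjusted p = 0.019), with 3 of 5 probe sets past the test. Dimmer probe sets of 4 further genes also passed, lower for *Cdk5* (1 of 2, at -0.38, adjusted p = 0.013) and for the calcineurin subunit gene *Ppp3cb* (1 of 4, at -0.23, adjusted p = 0.047). They were higher for the calcineurin subunit gene *Ppp3ca* (2 of 3, at 0.54 and 0.27) and for the SUMO ligase gene *Pias1* (2 of 3, at 0.29 and 0.32). *Ppargc1a* passed without any one array. *Cdk5r1* was lost without luciferase array 2, 3 or 4 or blank array 5 or 6 (adjusted p between 0.056 and 0.118) and *Mapk14* without luciferase array 3 or blank array 5 or 6 (adjusted p between 0.051 and 0.068).

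Genes described as MEF2 targets in neurons did not move one way. Of 9 measured, 3 were lower and 1 higher in luciferase neurons, beside 8.55% lower and 16.9% higher over all genes. *Nr4a1*, an orphan nuclear receptor of the immediate early class, read 293, 339, 367 and 456 in luciferase neurons, against 730.0, 771 and 707 in blank neurons, 2.05-fold lower, a change of -1.03 (SE 0.13, 95% interval -1.33 to -0.74, adjusted p = 0.0012). *Arc*, which promotes removal of AMPA receptors, read 61.9, 81.3, 82.0 and 80.2 in luciferase neurons, against 136, 103 and 152 in blank neurons, a change of -0.76 (SE 0.15, 95% interval -1.09 to -0.44, adjusted p = 0.0068). *Bdnf*, a secreted neurotrophin, read 549, 926, 798 and 1092 in luciferase neurons, against 1891, 1211 and 1737 in blank neurons, a change of -0.96 (SE 0.23, 95% interval -1.46 to -0.45, adjusted p = 0.016), and both of its probe sets passed. None of these 3 overlapped between groups, which was also so for 34.8% of all tested probe sets. *Jun*, the AP-1 subunit, went the other way and read 1453, 1323, 1371 and 1203 in luciferase neurons, against 732, 706 and 839 in blank neurons, 1.76-fold higher, a change of 0.82 (SE 0.092, 95% interval 0.61 to 1.03, adjusted p = 0.00072), with both probe sets past the test. Of the others, *Homer1* (-0.038) and *Lgi1* (-0.014) were near 0, and *Ube3a* was at 0.13 (adjusted p = 0.317). *Pcdh10*, a protocadherin linked to synapse removal, was at 0.34 (adjusted p = 0.054) and *Dipk2a* at 0.23 (adjusted p = 0.067). For *Pcdh10* 2 of 6 probe sets were higher, and for *Ube3a* 2 of 4. The *Bdnf* call was lost without blank array 5 (-0.83, adjusted p = 0.058), and *Nr4a1*, *Arc* and *Jun* passed without any one array. *Pcdh10* passed without luciferase array 2 (0.43, adjusted p = 0.018) and *Dipk2a* without blank array 7 (0.28, adjusted p = 0.031).

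The deacetylases outside class IIa give a measure of the wider family. Of 7 measured, *Hdac2*, a class I enzyme of neuronal nuclei, was lower, beside 8.55% of all genes. It read 2075, 2045, 2099 and 1714 in luciferase neurons, against 2397, 2327 and 2699 in blank neurons, a change of -0.32 (SE 0.10, 95% interval -0.53 to -0.11, adjusted p = 0.037), and 1 of its 2 probe sets passed. This call was lost without any one of the 7 arrays (adjusted p between 0.056 and 0.077). *Hdac1*, *Hdac3*, *Hdac6*, *Hdac8*, *Hdac10* and *Hdac11* lay between -0.044 and 0.29 and did not pass.

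**Figure D4:**
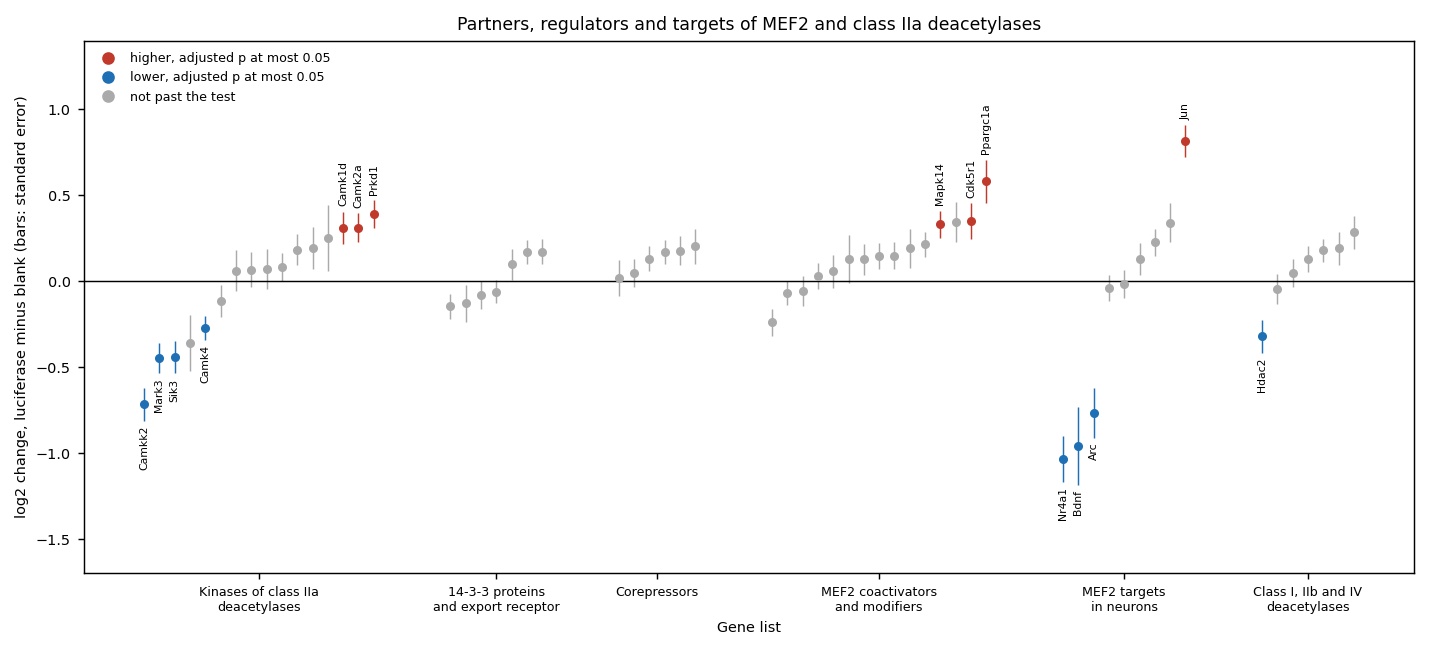
Log2 change (luciferase minus blank, y axis) of each measured gene of 6 lists (x axis), 1 probe set per gene, with bars for the standard error and names at genes past an adjusted p of 0.05. The 4 called MEF2 targets in neurons lie at both ends, *Nr4a1*, *Bdnf* and *Arc* below 0 and *Jun* above it.

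For each member the nearest genes were found by the root mean square difference of log2 levels over the 7 arrays, each gene first set to its mean over the blank arrays. This is a description across 7 arrays that share group and array effects. Nearest to *Hdac9* were *Psd* (0.057), *Sptssb* (0.058) and *Tsga10* (0.064), and only 17 genes lay within 0.1 of it. Their own changes were -0.63, -0.64 and -0.66, beside -0.61 for *Hdac9*, a closeness that follows from how they were chosen. *Hdac5* had *Tspan9* (0.044), *Zbtb40* (0.048) and *Far2* (0.053), *Hdac4* had *Ambra1* (0.036), *Abca2* (0.048) and *Usp27x* (0.057), and *Hdac7* had *Frat1* (0.048), *Igsf11* (0.056) and *Baalc* (0.060). The brightest *Mef2c* probe set lay nearest to *Ptpn4* (0.026), *Atrn* (0.030) and *Itsn2* (0.033), *Mef2a* to *Dedd* (0.028), *Ttc21b* (0.030) and *Egln1* (0.033), and *Mef2d* to *Sft2d2* (0.024), *Gucy1a1* (0.026) and *Spg20* (0.027). Between 880 and 1831 genes lay within 0.1 of these 3 members, whose levels differed little between the arrays.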

How the data were processed

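RNA of cultured cortical neurons was hybridised to 1 Affymetrix mouse array per sample, 4 luciferase and 3 blank. The authors normalized the scans with RMA, whose version is not stated in the sources used here, and deposited 1 intensity per probe set on a linear scale, from 4.69 to 23763. Per the methods, 1 untransduced array had failed quality control. Labels and methods differ on the RNA extraction reagent. Since the blank samples' description also speaks of a hairpin, groups follow the treatment field.

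The blank columns of the deposited table stand 1 row low. After a move up by 1 row the log2 group means had r = 0.995 over 45036 probe sets, against 0.421 as deposited and 0.376 to 0.421 for other moves, and the moved columns were used. Of 45101 probe sets, 64 controls and 2441 with _x in the name were left out, and 22748 of the remaining 42596 reached 50 on at least 1 array.

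Linear models were fitted to log2 intensity in limma 3.58.1 under R 4.3.3 (lmFit, then eBayes; no covariates), as luciferase minus blank. The p-values were adjusted over all tested probe sets by Benjamini-Hochberg, and a call is an adjusted p of at most 0.05. The script was tested on simulated data. The number of arrays limits the precision. Gene names come from the platform annotation, from probe sets with 1 gene only, and in the lists a gene is read from its brightest probe set on average. Differences between probe sets of one gene were tested in the same way on within-array log2 differences. Promoters and their coordinates are those of RefSeq (GRCm38.p6), and no coordinates were taken from the deposited data. The members and lists were chosen with earlier results of these data known.

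Named genes are all member probe sets, the measured MEF2 targets in neurons, up to 3 called genes per direction in each other list, and the 3 genes nearest to each member. *Camk4*, *Camk2d*, *Mark2*, *Ywhaz*, *Tbl1x*, *Cabin1*, *Cdk5*, *Ppp3ca*, *Ppp3cb*, *Pias1*, *Hdac3* and the marker genes with a called change or a level under 50 fall outside this rule and were named after their values were seen. The uncalled *Xpo1*, *Hdac1*, *Hdac6*, *Hdac8*, *Hdac10* and *Hdac11* and the untested *Camkk1* and *Prkd2* are also named outside it. The alternatives were no filter on level, a filter at 100, quantile normalization, centring on array medians, trend and robust variance, array weights, log2(value + 16), leaving out each array, the stricter fold rule for members and the smallest adjusted p over the probe sets of a gene for the lists. Those for probe sets of one gene and for single genes of the lists were added after seeing the data. Some genes of the lists are not reported here.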

Additional observations from a re-analysis of the deposited data

Results flagged for a closer look

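In 4 of 40 probe sets examined, 1 of the 4 luciferase arrays lay apart from the other 3 by more than Dixon's 95% critical value of 0.829 allows, where chance gives about 1 in 20. *Mef2a* probe set 1427185_at was highest on luciferase array 1, at 1342.42, with the others between 1247.18 and 1248.3. *Mef2c* probe set 1451507_at was highest on luciferase array 3, at 1832.62, with the others between 1699.51 and 1717.42. *Arc* (1418687_at) was lowest on luciferase array 1, at 61.93, with the others between 80.21 and 82.02. *Hdac2* (1445684_s_at) was lowest on luciferase array 4, at 1714.14, with the others between 2045.48 and 2099.34. Without the array in question, *Arc* still passed and the *Hdac2* call was lost (adjusted p = 0.072), while neither of the other 2 passed with or without it.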

How the results depend on the processing

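Each member probe set had 14 alternatives (filters, scalings, variance model, array weights, pseudocount and arrays left out), or 13 for *Mef2a* 1425426_a_at, *Mef2d* 1421388_at and *Hdac7* 1420812_at, which do not reach 100 on any array. Of the 291 values, 260 kept their direction and their side of the threshold. *Mef2c* 1421027_a_at (adjusted p between 0.00041 and 0.020), *Mef2c* 1421028_a_at (0.0012 to 0.018) and *Hdac9* 1434572_at (0.0026 to 0.038) passed in all 14. With array weights 7 member probe sets were higher, 19 list genes were higher and 2 within-gene differences passed. Of all tested probe sets 27.6% were then higher, beside 16.2% in the main fit. With the added demand of 1.5-fold, 1 member probe set was higher and 1 lower. Of list genes, 13 were higher with trend and robust variance, 4 with each array centred on its median, and 13 higher and 12 lower by the smallest adjusted p of a gene. Of all tested probe sets, 17.8% were higher with trend and robust variance and 9.10% with centring. For the smallest adjusted p no share over all genes is given here, and a gene with more probe sets has more chances to pass. The within-gene *Mef2c* difference gave 0 calls with no filter and 0 after quantile normalization.

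Leaving out 1 array gave 2 to 6 higher member probe sets, 1 to 2 lower ones, 3 to 11 higher list genes, 5 to 8 lower ones, and 0 within-gene calls in every case. The same fits called 8.97% to 21.6% of all tested probe sets higher and 5.11% to 9.62% lower. Values that changed sign were uncalled throughout. With each array centred on its median they were *Mef2a* 1452347_at (-0.018), *Mef2c* 1424852_at (-0.025), *Mef2d* 1437300_at (-0.00038), *Mef2d* 1421388_at (-0.028), *Hdac7* 1420813_at (-0.026) and *Hdac3* (-0.048). After quantile normalization they were *Hdac7* 1420813_at (-0.0079) and *Hdac3* (-0.015). With array weights they were *Mef2a* 1427186_a_at (0.0013), *Mef2d* 1421388_at (-0.10), *Homer1* (0.0088) and *Lgi1* (0.026). With 1 array left out, the changes of *Mef2a* 1427186_a_at ranged from -0.13 to 0.061, of *Mef2d* 1421388_at from -0.061 to 0.19, of *Hdac7* 1420813_at from -0.0021 to 0.13, of *Homer1* from -0.079 to 0.027 and of *Lgi1* from -0.066 to 0.053, each on the other side of 0 without blank array 7, and *Lgi1* also without luciferase array 4 (0.012). Those of *Mef2a* 1425426_a_at, close to the filter, ranged from -0.17 to 0.13, above 0 without luciferase array 2, luciferase array 3 or blank array 5. The cause was not tested.

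The median change of all tested probe sets was 0.056 as deposited, 0.00078 after quantile normalization and -0.040 after centring. No paired analysis was possible because the sample labels give no plate or preparation by which arrays could be paired. The groups also share no replicate numbers.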
